A study of Dorcoceras hygrometricum with 9 samples.

Results

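Chloroplasts and mitochondria build part of their own protein with ribosomes of a bacterial type, and the transcripts for the proteins of those ribosomes were followed here in leaves of the resurrection plant Boea hygrometrica (Dorcoceras hygrometricum in the labels), whose leaves survive drying. A gene was a member when it had at least 30 reads in total, when the description of its best database match held the words ribosomal protein, and when that description also named the chloroplast, the plastid, the mitochondrion or a ribosomal subunit by its bacterial name (30S or 50S). Of 24182 genes with a read, 15677 reached the minimum and 40 were members, and no match was left out for naming a kinase, a transferase or a methyl group. The members nearest the minimum had 422, 427 and 428 reads in total, and the matches that missed it were a second S7 gene and an S2 gene with 1 read each. Every member had a read in all 9 libraries and passed the filter on low counts, so all 40 were tested.

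RNA was sequenced from leaf tissue in 3 water states, with 3 libraries per state that the series' design text calls biological replicates. Hydrated leaves were titled HD, and the other leaves came from potted plants dried to 70% or 10% relative water content (RWC, leaf water as a share of that at full turgor). No genotype, age, time of drying or number of plants per sample is given in the sources used here, so p-values measure the spread between these libraries, which may be technical in part.

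Organelle ribosomes consist of a small subunit, which reads the messenger RNA, and a large subunit, which joins the amino acids and holds the exit tunnel of the new chain. Most of their proteins are encoded in the nucleus, made in the cytosol and imported, while a smaller set is encoded in the organelle itself. Chloroplast ribosomes make core photosystem subunits and the large subunit of Rubisco, and mitochondrial ribosomes make subunits of the respiratory chain. Proteins are numbered by subunit (S for small, L for large), and roles given below for a number are those known in Escherichia coli unless another source is named.

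The description named the chloroplast for 13 members and the mitochondrion for 6. It named neither for 21, of which 9 carried a plastid term of the Gene Ontology in the authors' annotation and 12 carried none. The 13 and the 9 are counted below as 22 chloroplast members, and the organelle of the 12 is not given. Small-subunit proteins made up 12 members and large-subunit proteins 27, and the description of 1 gave no number. These names are those of best matches, and 13 gene models hold no intron.

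The 9 libraries held 6654601 to 7423965 uniquely aligned reads in the genes tested. A member had 13 to 2479 reads per library that covered 47.01% to 99.92% of its coding length (median 96.66%). Replicate 1 of each state stood apart: over all tested genes, counts of replicate 1 differed from those of replicates 2 and 3 with a chi-square of 4.84 to 8.47 per gene, against 1.27 to 1.38 between replicates 2 and 3. Counting error alone gives about 1 on that scale, so replicates 2 and 3 differed little more than repeats of 1 sample would. Counts without replicate 1 thus rest on 2 libraries per state with little spread and do not test how calls hold between plants. Among the members, replicate 1 was the highest library in all 3 states for 8 and the lowest in all 3 for 9. The main counts of calls are given below with and without it. The leaf label fitted the mesophyll markers in hydrated leaves, where Rubisco small subunit and activase genes held 4.95% ± 0.641 of reads. That sum was 0.516% ± 0.0654 at 70% RWC and 0.109% ± 0.00985 at 10% RWC. The 2 root marker genes had 6, 2 and 0 reads in the 3 states. Of the other leaf cells' markers, 6 of 9 epidermal genes and 3 of 3 guard cell genes were lower at 70% RWC than in hydrated leaves. Of the other epidermal genes, 1 was higher and 2 were not called. These counts were the same at 10% RWC against hydrated leaves. Between the dried states, 4 epidermal genes were lower and 3 higher at 10% RWC, and 2 guard cell genes were lower and 1 higher. Of all genes tested, 35.9% were lower and 34.6% higher at 70% RWC, and 41.5% and 42.4% at 10% RWC. Between the dried states the shares of all genes were 39.6% and 37.1%. A 3-ketoacyl-CoA synthase 6-like gene made up much of the epidermal sum in hydrated leaves, with 478 ± 24.5 CPM there, 4.42 ± 0.316 at 70% RWC and 0.356 ± 0.504 at 10% RWC. The epidermal sum ran from 0.0765% to 0.0838% of reads in hydrated leaves, 0.0126% to 0.0131% at 70% RWC and 0.00903% to 0.0107% at 10% RWC, and the guard cell sum from 0.00351% to 0.00424%, 0.00137% to 0.00156% and 0.000680% to 0.000859%. The part of a shift in cell types in the results below was not tested. In whole leaves, fewer cells of a type and less RNA per cell cannot be told apart, and all values are shares of the sequenced RNA rather than amounts per leaf.

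Levels between genes are compared as CPM (reads per 1000000 reads of the library, scaled by TMM factors) per kilobase of coding length. In hydrated leaves the highest members on that scale were S13 with 548 ± 22.8 (SD, n = 3), L35 with 407 ± 27.8 and L28 with 371 ± 64.7 CPM per kb, all 3 described as chloroplastic. The SDs of S13 and L35 do not reach each other, while those of L35 and L28 do. S31, L29, L31, S1, L10, S9 and L19 followed, and the first 17 places were all held by chloroplast members, with L6, of no given organelle, as the first other member at place 18. The lowest was L4 with 8.47 ± 0.676 CPM per kb, itself a chloroplast member by its ontology term. The highest member stood 64.7 times above the lowest in hydrated leaves, 23.4 times at 70% RWC and 46.8 times at 10% RWC. The order changed with drying. S13 was first again at 10% RWC with 203 ± 6.08 CPM per kb, followed by L28 with 180.2 ± 29.9 and L29 with 159 ± 16.7, whereas S31 left the first 6 places at both water contents. The median over the 40 members was 46.2, 36.8 and 30.02 CPM per kb in the 3 states.

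Chloroplast ribosomal protein transcripts were mostly lower in drying leaves, and mitochondrial ones were called in both directions. At 70% RWC against hydrated leaves, edgeR's quasi-likelihood test called 23 of 40 members lower and 3 higher at an adjusted p under 0.05. Of all 14585 genes tested, 35.9% were called lower and 34.6% higher in that comparison (70.5% in either direction), so the 57.5% of members called lower stand above that background and the 7.5% called higher below it. The median log2 fold change of the members was -0.68 and that of all tested genes -0.01. The libraries of the compared states did not overlap for 26 members, a share below the 72.8% of all genes. A decrease of at least 2-fold was called for 13 members, beside 20.5% of all genes. No increase reached that size, the largest being 1.80-fold for mitochondrial S27, while 15.1% of all genes had one.

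At 10% RWC against hydrated leaves, 25 members were called lower and 10 higher. Of all genes, 41.5% were called lower and 42.4% higher, 83.9% in either direction. The members' median log2 fold change was -0.91, while that of all genes was 0.01, and 33 members had states that did not overlap, against 84.7% of all genes. Decreases of at least 2-fold numbered 20 and increases 5, with 29.7% and 25.9% in the background. Between the dried states, 16 members were lower and 15 higher at 10% than at 70% RWC, close to the 39.6% and 37.1% of all genes (76.8% in either direction). The medians were -0.14 and -0.05. The states did not overlap for 33 members in that comparison, where the background was 79.0%, and changes of at least 2-fold were 7 lower and 5 higher beside 25.0% and 18.6%. These 3 comparisons share libraries, so each is given by its own values.

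Without replicate 1 the counts were 23 lower and 2 higher at 70% RWC, 27 and 9 at 10% RWC, and 17 and 15 between the dried states. Changes of at least 2-fold then numbered 14 lower and 0 higher, 20 and 6, and 10 and 6. With replicates 2 and 3 summed as 1 library the counts of calls were 22 and 1, 23 and 9, and 15 and 14. Over 18 alternative analyses (other scaling, filters and tools, or libraries left out), 23 of 26 calls at 70% RWC, 31 of 35 at 10% RWC and 29 of 31 between the dried states held in every one, and no call changed direction. Leaving out 70% RWC replicate 1 moved the decreases between the dried states from 16 to 20, with chloroplastic L19 (adjusted p = 0.0141), L34 (0.0314), L31 (0.0355) and L33 (0.0412) added.

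**Figure D1:**
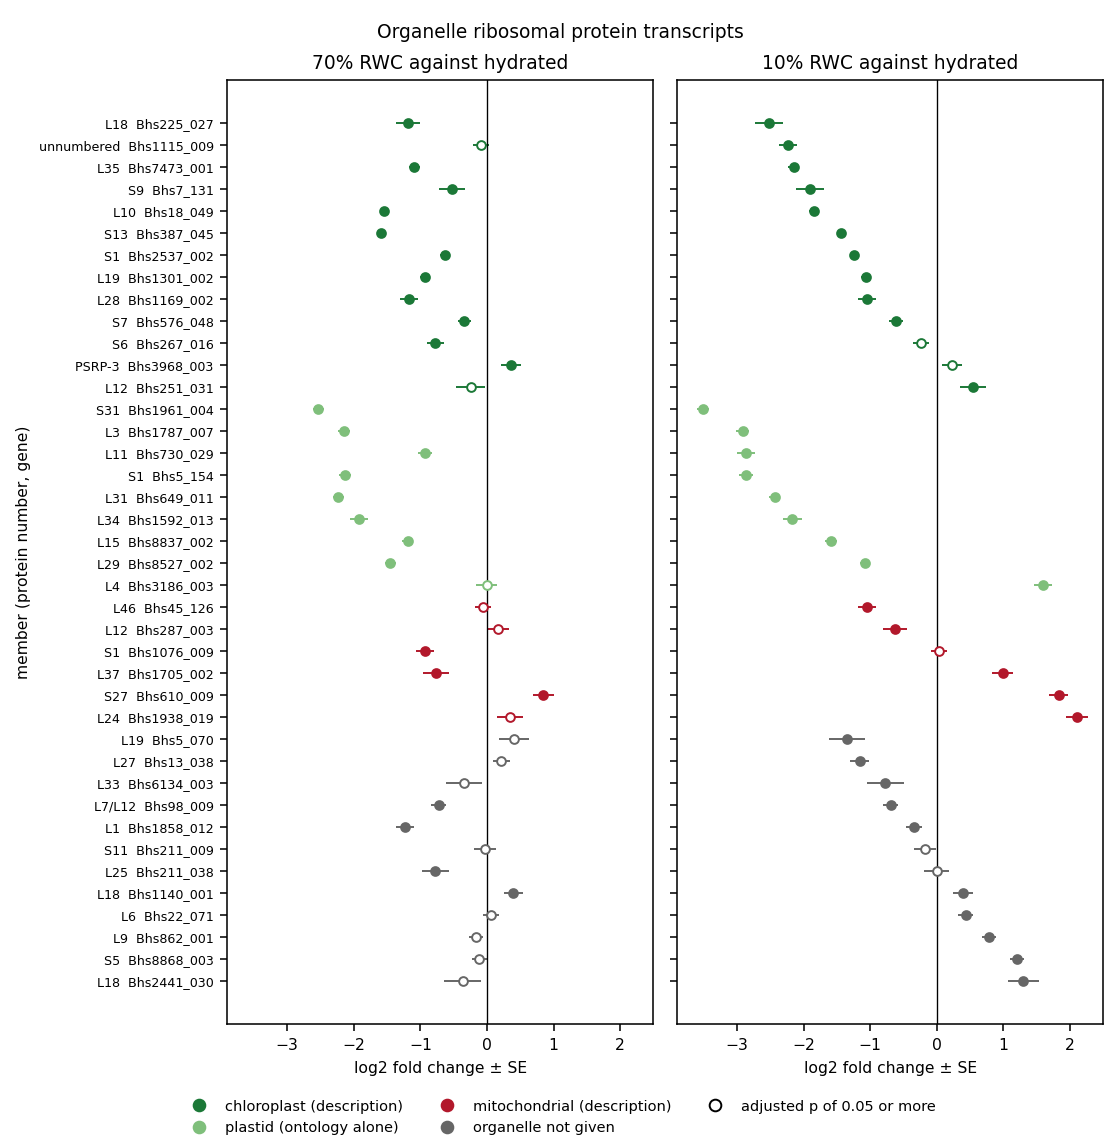
Log2 fold change with its SE for each of the 40 members at 70% RWC (left) and 10% RWC (right) against hydrated leaves, with members grouped by organelle and ordered by the change at 10% RWC, and open points for an adjusted p of 0.05 or more. Most green (chloroplast) points lie left of 0, down to -3.51 for S31, while red (mitochondrial) and grey (organelle not given) points lie on both sides of it, up to 2.10 for mitochondrial L24.

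The 22 chloroplast members carried most of the decrease. Of them 18 were lower and 1 higher at 70% RWC, 18 lower and 2 higher at 10% RWC, and 12 lower and 5 higher at 10% than at 70% RWC. Their median log2 fold changes were -1.13, -1.72 and -0.29. Among the other 18 members, 5 were lower and 2 higher at 70% RWC, 7 and 8 at 10% RWC, and 4 and 10 between the dried states, with medians of -0.09, 0.01 and 0.57. Of all genes, 35.9%, 41.5% and 39.6% were lower in the 3 comparisons. The chloroplast members had 81.8%, 81.8% and 54.5% lower, and the other 18 had 27.8%, 38.9% and 22.2%. At 10% RWC the other 18 had 44.4% higher beside 42.4% of all genes, so both their shares were near the background there. Leaving out replicate 1 gave 18 lower and 1 higher, 19 and 2, and 13 and 5 for the chloroplast members, and 5 lower and 1 higher, 8 and 7, and 4 and 10 for the others. The members named chloroplastic in their description and those placed by ontology alone went the same way, with 10 of 13 and 8 of 9 lower at 10% RWC. By subunit, 8 of 12 small-subunit and 15 of 27 large-subunit members were lower at 70% RWC, and 6 and 18 were lower at 10% RWC. Without replicate 1 the small-subunit count at 10% RWC was 8, and the other 3 counts were unchanged.

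Level differed along with organelle. Members with a mean of at least 30 CPM over all libraries were called lower in 15 of 18 cases at both water contents, and those under it in 8 and 10 of 22. The members under that level were thus lower in 36.4% and 45.5% of cases, near the 35.9% and 41.5% of all genes. Those above it were lower in 83.3% at both. Without replicate 1 the counts were 15 and 16 of 18, and 8 and 11 of 22. The part of expression level in the difference between organelles was not tested.

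Summed over all 40 members, the transcripts took 0.286%, 0.278% and 0.281% of the reads in hydrated leaves, 0.136%, 0.129% and 0.130% at 70% RWC and 0.123%, 0.121% and 0.121% at 10% RWC. The states did not overlap, and most of the difference lay between hydrated leaves and 70% RWC. The sum of the 22 chloroplast members went from 0.253% ± 0.00386 (SD, n = 3) to 0.108% ± 0.00264 and 0.0864% ± 0.000924 of reads. For the 6 mitochondrial members the sum was 0.00813% ± 0.000160, 0.00692% ± 0.000443 and 0.0116% ± 0.000531, so it was highest at 10% RWC, at 142% of its hydrated mean. That rise was not shared by all 6, of which 3 were called higher at 10% RWC than in hydrated leaves, 2 lower and 1 not called. The largest increases were those of L24, from 7.93 to 34.15 CPM on average, and S27, from 7.05 to 25.3 CPM. The chloroplast sum was 31.1 ± 0.743 times the mitochondrial sum in hydrated leaves, 15.7 ± 1.21 times at 70% RWC and 7.48 ± 0.419 times at 10% RWC, and the states did not overlap in this ratio. Chloroplast members held 89.8% ± 0.285 of all members' reads in hydrated leaves and 71.0% ± 1.01 at 10% RWC. The 12 members without a given organelle summed to 0.0205% ± 0.000991, 0.0165% ± 0.000945 and 0.0238% ± 0.000862 of reads.

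**Figure D2:**
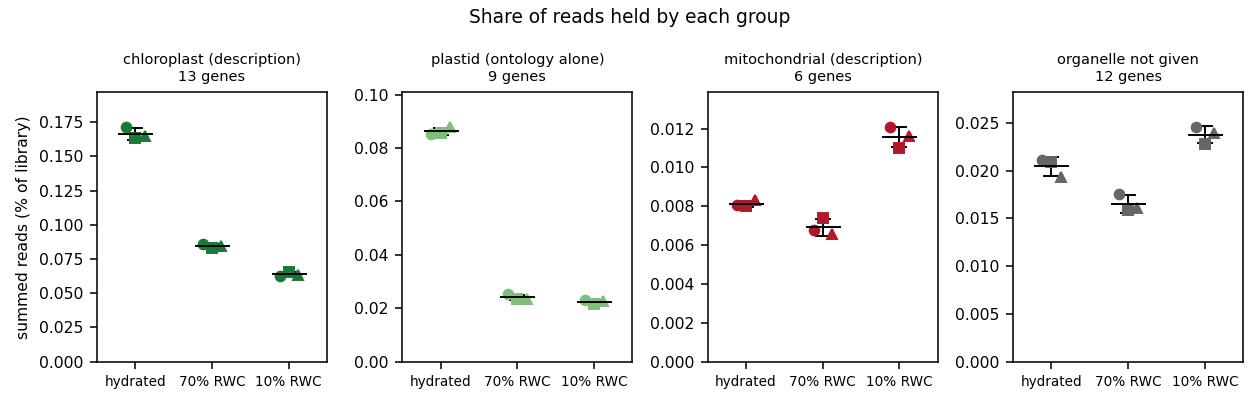
Summed reads of 4 groups of members as a percent of each library's reads, with the mean and SD of 3 libraries and with circles, squares and triangles for replicates 1, 2 and 3. Both chloroplast groups are highest in hydrated leaves, and the mitochondrial group is highest at 10% RWC, at 0.0116% against 0.00813%.

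Against hydrated leaves, the 5 steepest decreases at 70% RWC and the 4 steepest at 10% RWC belonged to chloroplast members placed by ontology. S31 (Bhs1961_004V1.1), described as a 30S protein and with 342 coding bases, lies on the minus strand of scaffold 1961 at 192945-193459. It had 117, 116 and 124 CPM in hydrated leaves, 21, 20.8 and 19.7 CPM at 70% RWC and 11.1, 10.5 and 9.73 CPM at 10% RWC. Its states did not overlap in any comparison. It was 5.80-fold lower at 70% RWC (log2 fold change -2.54, SE 0.081, adjusted p = 1.2e-14) and 11.4-fold lower at 10% RWC (log2 fold change -3.51, SE 0.089, adjusted p = 2.88e-16), and the further step between the dried states was called as well (log2 fold change -0.97, SE 0.104, adjusted p = 1.73e-07). The gene described as an S1 homolog (Bhs5_154V1.1), S1 being the protein that holds messenger RNA on the small subunit, lies on the minus strand of scaffold 5 at 1014580-1019436. It had 83.1, 83.3 and 88.8 CPM in hydrated leaves, 19.5, 18.2 and 20.5 CPM at 70% RWC and 13.1, 11.6 and 10.3 CPM at 10% RWC. Its libraries also fell in 3 separate ranges, with the largest drop before 70% RWC. The homolog was 4.39-fold lower at 70% RWC (log2 fold change -2.13, SE 0.093, adjusted p = 8.65e-13) and 7.29-fold lower at 10% RWC (log2 fold change -2.87, SE 0.1, adjusted p = 2e-14).

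L3, L31 and L34, large-subunit proteins placed in the plastid by ontology, were also far lower by 70% RWC. L3 (Bhs1787_007V1.1), which lies near the peptidyl transferase centre and binds early in assembly, lies on the minus strand of scaffold 1787 at 91031-93291. It had 133, 155 and 155 CPM in hydrated leaves, 31.02, 32.1 and 36.7 CPM at 70% RWC and 19.3, 18.7 and 20.7 CPM at 10% RWC. All hydrated libraries were above all dried ones, and the 2 dried states were separate. L3 was 4.44-fold lower at 70% RWC (log2 fold change -2.15, SE 0.088, adjusted p = 3.58e-13) and 7.54-fold lower at 10% RWC (log2 fold change -2.91, SE 0.094, adjusted p = 6.81e-15). L31 (Bhs649_011V1.1), which spans the subunits, lies on the minus strand of scaffold 649 at 78572-79058. It had 112, 109 and 108 CPM in hydrated leaves, 24.9, 22.98 and 21.95 CPM at 70% RWC and 21.2, 19.1 and 20.7 CPM at 10% RWC. It was low in both dried states, 4.71-fold lower at 70% RWC (adjusted p = 6.49e-14), and the step between 70% and 10% RWC was not called at an adjusted p of 0.0649, though it was in 2 of 18 alternatives, one of them without 70% RWC replicate 1 (adjusted p = 0.0355). L34 (Bhs1592_013V1.1), one of the smallest proteins of the large subunit, lies on the minus strand of scaffold 1592 at 85316-85534. It had 30.4, 37.8 and 36.5 CPM in hydrated leaves, 7.93, 9.81 and 9.87 CPM at 70% RWC and 6.39, 8.69 and 8.11 CPM at 10% RWC. All its dried libraries were below the hydrated ones, 3.78-fold lower at 70% RWC (log2 fold change -1.92, SE 0.139, adjusted p = 1e-09), while the dried states overlapped.

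L11 took a later course. This protein (Bhs730_029V1.1) of the site where translation factors act on the large subunit lies on the minus strand of scaffold 730 at 224166-227263. It had 30.8, 33.9 and 32.9 CPM in hydrated leaves, 18.1, 15.2 and 17.8 CPM at 70% RWC and 4.53, 3.79 and 4.998 CPM at 10% RWC. The 3 states were separate, and the larger step lay between the dried states. It was 1.91-fold lower at 70% RWC (log2 fold change -0.93, SE 0.112, adjusted p = 8.88e-07) and 7.29-fold lower at 10% RWC (log2 fold change -2.87, SE 0.138, adjusted p = 1.89e-12), and from 70% to 10% RWC it was a further 3.83-fold lower (log2 fold change -1.94, SE 0.15, adjusted p = 2.36e-09). L10, the base of the stalk that recruits those factors, took most of its decrease early, from 172 ± 12.1 to 59.03 ± 1.94 and 47.8 ± 1.57 CPM (SD, n = 3), with log2 fold changes of -1.54 (adjusted p = 1.89e-12) and -1.85 (adjusted p = 1.03e-13) against hydrated leaves. L15, which joins the large subunit late in its assembly, went from 132 ± 11.99 to 57.8 ± 0.947 and 43.9 ± 4.25 CPM and was called lower in all 3 comparisons.

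A further decrease at 10% RWC was also seen in the small subunit and in L35. The chloroplastic S1 gene (Bhs2537_002V1.1), the small-subunit member with the highest mean CPM over all 9 libraries, lies on the plus strand of scaffold 2537 at 40071-43700. It had 317, 319.6 and 327 CPM in hydrated leaves, 211, 197 and 212 CPM at 70% RWC and 124, 147 and 136 CPM at 10% RWC. Each state was separate from the others. It was 1.55-fold lower at 70% RWC (log2 fold change -0.63, SE 0.066, adjusted p = 1.44e-07) and 2.37-fold lower at 10% RWC (log2 fold change -1.24, SE 0.068, adjusted p = 1.02e-11). L35 (Bhs7473_001V1.1) lies on the plus strand of scaffold 7473 at 1879-2393. It had 143, 158 and 164 CPM in hydrated leaves, 67.6, 73.8 and 77.03 CPM at 70% RWC and 33.4, 38 and 33.4 CPM at 10% RWC, again with no overlap. Its log2 fold change was -1.09, SE 0.077 at 70% RWC, -2.15, SE 0.082 at 10% RWC and -1.06, SE 0.085 between them, all called (largest adjusted p = 3.86e-09). S9 (Bhs7_131V1.1), whose tail touches the transfer RNA that carries the growing chain, lies on the plus strand of scaffold 7 at 781329-783383. It had 119, 165 and 160.1 CPM in hydrated leaves, 82.9, 109.8 and 115 CPM at 70% RWC and 29.4, 47.1 and 41.9 CPM at 10% RWC. Replicate 1 was the lowest library in each state, and the states did not overlap. S9 was 3.75-fold lower at 10% RWC (log2 fold change -1.91, SE 0.209, adjusted p = 3e-05) and lower at 10% than at 70% RWC (log2 fold change -1.38, SE 0.212, adjusted p = 0.000362). The call at 70% RWC (log2 fold change -0.53, SE 0.193, adjusted p = 0.0372) was lost in 6 of 18 alternative analyses, over which its adjusted p ran from 6.72e-15 to 0.101, and among these were the analyses without 10% RWC replicate 3 (adjusted p = 0.0513), 70% RWC replicate 1 (adjusted p = 0.0976), 70% RWC replicate 2 (adjusted p = 0.0571), hydrated replicate 2 (adjusted p = 0.101) or hydrated replicate 3 (adjusted p = 0.0995).

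The description of 1 chloroplast member gives no protein number (Bhs1115_009V1.1). It lies on the plus strand of scaffold 1115 at 214825-216484. It had 136, 108 and 107 CPM in hydrated leaves, 122.7, 109 and 96.9 CPM at 70% RWC and 28.9, 20.3 and 25.7 CPM at 10% RWC. Hydrated and 70% RWC libraries overlapped, whereas the 10% RWC libraries lay far below both. At 70% RWC it was not called (log2 fold change -0.10, SE 0.119, adjusted p = 0.485), and at 10% RWC it was 4.69-fold lower than in hydrated leaves (log2 fold change -2.23, SE 0.136, adjusted p = 2.28e-09) and 4.38-fold lower than at 70% RWC (log2 fold change -2.13, SE 0.136, adjusted p = 6.11e-09). The drop between the dried states was the steepest of all 40 members.

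Other chloroplast members fell by 70% RWC and then held or regained part of their level. S13 (Bhs387_045V1.1), a protein of the head of the small subunit, lies on the minus strand of scaffold 387 at 311093-312120. It had 288, 267 and 268 CPM in hydrated leaves, 97.1, 88.99 and 87.8 CPM at 70% RWC and 103, 98.2 and 104 CPM at 10% RWC. Hydrated libraries were far above the others, and every 10% RWC library was slightly above every 70% RWC library. It was 3.004-fold lower at 70% RWC (log2 fold change -1.59, SE 0.065, adjusted p = 3.38e-13) and 2.70-fold lower at 10% RWC (log2 fold change -1.43, SE 0.064, adjusted p = 6.67e-13). The call of a small rise between the dried states (log2 fold change 0.16, SE 0.066, adjusted p = 0.0424) was lost in 12 of 18 alternative analyses, over which its adjusted p ran from 0.00617 to 0.27, and among these were the analyses without 10% RWC replicate 1 (adjusted p = 0.0898), 10% RWC replicate 3 (adjusted p = 0.121), 70% RWC replicate 1 (adjusted p = 0.27), 70% RWC replicate 2 (adjusted p = 0.139), 70% RWC replicate 3 (adjusted p = 0.167), hydrated replicate 2 (adjusted p = 0.0565) or hydrated replicate 3 (adjusted p = 0.0583). L29 (Bhs8527_002V1.1), at the mouth of the exit tunnel, lies on the minus strand of scaffold 8527 at 27366-29169. It had 179, 169 and 166 CPM in hydrated leaves, 67.5, 61.5 and 58.6 CPM at 70% RWC and 89.6, 72.8 and 79.97 CPM at 10% RWC. Its 10% RWC libraries lay between those of the other states, with replicate 1 highest in each. L29 was 2.73-fold lower at 70% RWC (log2 fold change -1.45, SE 0.081, adjusted p = 2.59e-11), 2.12-fold lower at 10% RWC (log2 fold change -1.08, SE 0.079, adjusted p = 6.16e-10) and higher at 10% than at 70% RWC (log2 fold change 0.37, SE 0.083, adjusted p = 0.000643).

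S6 (Bhs267_016V1.1), a protein of the platform of the small subunit, lies on the minus strand of scaffold 267 at 96497-97580. It had 51.6, 61.5 and 68.8 CPM in hydrated leaves, 31.99, 37.03 and 36.97 CPM at 70% RWC and 43.7, 60.4 and 50.1 CPM at 10% RWC. The 70% RWC libraries were the lowest, and those of hydrated leaves and 10% RWC overlapped. It was 1.71-fold lower at 70% RWC (log2 fold change -0.78, SE 0.126, adjusted p = 4.78e-05) and rose again from 70% to 10% RWC (log2 fold change 0.54, SE 0.128, adjusted p = 0.00123). Against hydrated leaves the 10% RWC value was not called (log2 fold change -0.24, SE 0.121, adjusted p = 0.0819), but 10 of 18 alternatives called it lower, among them the analyses without hydrated replicate 1 (adjusted p = 0.0107), 70% RWC replicate 1 (0.0129) or 10% RWC replicate 2 (0.0114). L28 (Bhs1169_002V1.1), the large-subunit member with the highest mean CPM over all 9 libraries, lies on the minus strand of scaffold 1169 at 22822-25314. It had 203, 152 and 153 CPM in hydrated leaves, 80.8, 72.2 and 73.5 CPM at 70% RWC and 97.5, 77.7 and 71.3 CPM at 10% RWC. Replicate 1 was its highest library in every state, hydrated leaves were separate from both dried states, and these overlapped. In hydrated leaves alone L10, L29 and L28 averaged 172 ± 12.1, 171 ± 6.75 and 169 ± 29.5 CPM. L28 was 2.24-fold lower at 70% RWC (log2 fold change -1.17, SE 0.134, adjusted p = 8.15e-06) and 2.06-fold lower at 10% RWC (log2 fold change -1.04, SE 0.133, adjusted p = 1.32e-05). L19, at the face between the subunits, had group means of 134 ± 7.93, 70.1 ± 0.572 and 63.9 ± 3.55 CPM, with log2 fold changes of -0.93 (adjusted p = 1.56e-09) and -1.07 (adjusted p = 1.37e-10).

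S7 (Bhs576_048V1.1), which starts the assembly of the small subunit's head, matched a protein encoded in the chloroplast genome. Its model has no intron, and only uniquely aligned reads were counted, so whether the reads come from the organelle's own gene or a nuclear copy was not tested. S7 lies on the plus strand of scaffold 576 at 500914-501381. Reads covered only 47.01% to 48.08% of its coding length over the libraries, so its level beside that of other genes is uncertain. It had 37.6, 39.3 and 42.8 CPM in hydrated leaves, 29.9, 31.2 and 33.3 CPM at 70% RWC and 22.6, 29.2 and 26.5 CPM at 10% RWC. The decrease was small and the states did not overlap: 1.27-fold lower at 70% RWC (adjusted p = 0.00643) and 1.53-fold lower at 10% RWC (adjusted p = 3.02e-05). The call of a further decrease to 10% RWC (log2 fold change -0.27, SE 0.106, adjusted p = 0.0286) was lost in 6 of 18 alternative analyses, over which its adjusted p ran from 0.00415 to 0.147, and among these were the analyses without 10% RWC replicate 1 (adjusted p = 0.147), 10% RWC replicate 3 (adjusted p = 0.0532), 70% RWC replicate 2 (adjusted p = 0.0532) or 70% RWC replicate 3 (adjusted p = 0.0971).

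Some chloroplast members went against the rest. L4 (Bhs3186_003V1.1), which lines the exit tunnel, lies on the minus strand of scaffold 3186 at 41523-45226. It had 8.17, 8.09 and 7.06 CPM in hydrated leaves, 9.04, 7.32 and 6.92 CPM at 70% RWC and 22.6, 23.1 and 24.7 CPM at 10% RWC. Hydrated and 70% RWC libraries overlapped, and all 10% RWC libraries were higher. It was 3.01-fold higher at 10% RWC than in hydrated leaves (log2 fold change 1.59, SE 0.133, adjusted p = 4.3e-09) and 3.02-fold higher than at 70% RWC (log2 fold change 1.59, SE 0.134, adjusted p = 7.34e-09), and its plastid placement rests on the ontology term alone. A chloroplastic-like L12 gene (Bhs251_031V1.1), of the stalk that recruits translation factors, lies on the plus strand of scaffold 251 at 201703-202194. It had 5.36, 5.82 and 6.62 CPM in hydrated leaves, 5.01, 4.39 and 5.60 CPM at 70% RWC and 6.26, 9.82 and 9.86 CPM at 10% RWC. Its 10% RWC libraries were all above the 70% RWC ones (log2 fold change 0.79, SE 0.203, adjusted p = 0.00204), but they overlapped the hydrated ones. The call of an increase against hydrated leaves (log2 fold change 0.54, SE 0.196, adjusted p = 0.0162) was lost in 7 of 18 alternative analyses, over which its adjusted p ran from 0.00116 to 0.0824, and among these were the analyses without 10% RWC replicate 2 (adjusted p = 0.0691), 10% RWC replicate 3 (adjusted p = 0.0765), 70% RWC replicate 1 (adjusted p = 0.0547) or hydrated replicate 1 (adjusted p = 0.0538). PSRP-3 (Bhs3968_003V1.1), a plastid-specific protein of the small subunit, lies on the plus strand of scaffold 3968 at 57384-57851. It had 10.2, 11.8 and 12.1 CPM in hydrated leaves, 13.6, 14.2 and 15.8 CPM at 70% RWC and 10.5, 14.9 and 14.5 CPM at 10% RWC. Hydrated and 70% RWC libraries did not overlap, while those at 10% RWC overlapped both. At 10% RWC it was not called (adjusted p = 0.169), but it was without 10% RWC replicate 1 (adjusted p = 0.0235). The call of an increase at 70% RWC (log2 fold change 0.36, SE 0.15, adjusted p = 0.0423) was lost in 10 of 18 alternative analyses, over which its adjusted p ran from 0.0149 to 0.142, and among these were the analyses without 70% RWC replicate 2 (adjusted p = 0.0656), 70% RWC replicate 3 (adjusted p = 0.131), hydrated replicate 1 (adjusted p = 0.126), hydrated replicate 2 (adjusted p = 0.0615) or hydrated replicate 3 (adjusted p = 0.0511).

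**Figure D3:**
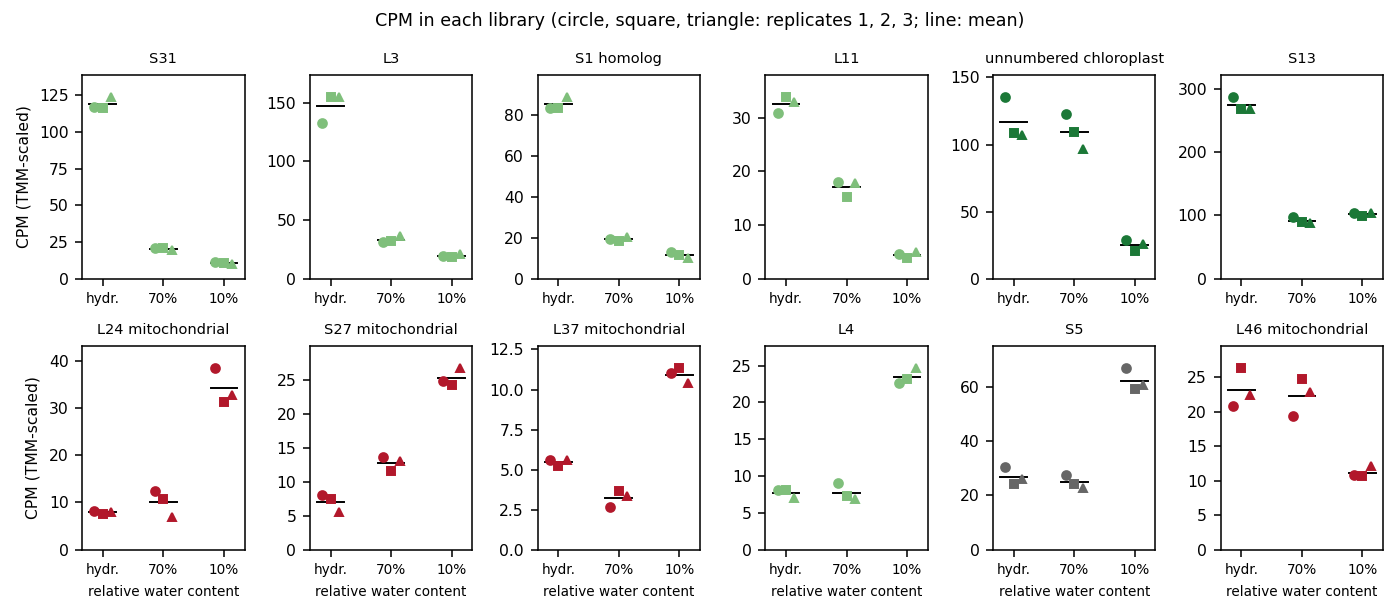
TMM-scaled CPM of 12 members in each of the 9 libraries, with a line at the mean of each state, colours by organelle as in the plot of fold changes, and linear axes from 0 that differ between panels. The upper row shows chloroplast members that fell, such as S31 from 119 to 20.5 and 10.4 CPM on average, and the lower row shows members that rose at 10% RWC together with mitochondrial L46, which fell from 23.2 to 11.2 CPM.

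The 6 members described as mitochondrial were at low levels, between 5.49 and 26.7 CPM on average in hydrated leaves, and were called in both directions. At 70% RWC 2 were lower and 1 higher. At 10% RWC 2 were lower and 3 higher than in hydrated leaves, and against 70% RWC the counts were 2 and 4. With 6 members, the shares at 10% RWC lie near the 41.5% lower and 42.4% higher of all genes. At 70% RWC 35.9% of all genes were lower and 34.6% higher, and between the dried states 39.6% and 37.1%. Leaving out replicate 1 changed none of the counts of the 6 members. The medians were 0.06, 0.51 and 0.97 on the log2 scale.

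L24 (Bhs1938_019V1.1), which in Escherichia coli starts the assembly of the large subunit, lies on the minus strand of scaffold 1938 at 201855-203053. It had 8.17, 7.66 and 7.94 CPM in hydrated leaves, 12.4, 10.8 and 6.92 CPM at 70% RWC and 38.5, 31.3 and 32.7 CPM at 10% RWC. Its hydrated and 70% RWC libraries overlapped and its 10% RWC libraries were all higher, with replicate 1 the highest of each state. L24 rose 4.30 times at 10% RWC (log2 fold change 2.10, SE 0.161, adjusted p = 1.2e-09), the largest increase among the 40 members, and 3.39 times from 70% to 10% RWC (adjusted p = 1.41e-08). At 70% RWC it was not called (log2 fold change 0.34, SE 0.19, adjusted p = 0.115), although leaving out 70% RWC replicate 3 gave an adjusted p of 0.00724. S27 (Bhs610_009V1.1), a small-subunit protein named after its fungal counterpart, lies on the minus strand of scaffold 610 at 130668-131691. It had 8.05, 7.52 and 5.59 CPM in hydrated leaves, 13.6, 11.6 and 13.1 CPM at 70% RWC and 24.8, 24.3 and 26.8 CPM at 10% RWC. It rose at each step with no overlap, 1.80 times at 70% RWC (log2 fold change 0.85, SE 0.154, adjusted p = 9.42e-05) and 3.56 times at 10% RWC (log2 fold change 1.83, SE 0.14, adjusted p = 1.21e-09). L37 (Bhs1705_002V1.1) lies on the minus strand of scaffold 1705 at 37354-37749. It had 5.62, 5.25 and 5.59 CPM in hydrated leaves, 2.64, 3.66 and 3.39 CPM at 70% RWC and 11.1, 11.4 and 10.4 CPM at 10% RWC. Its lowest libraries were those at 70% RWC and its highest those at 10% RWC, with no overlap. The log2 fold changes were -0.77, SE 0.197 at 70% RWC (adjusted p = 0.00225) and 0.99, SE 0.158 at 10% RWC (adjusted p = 1.54e-05).

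The mitochondrial S1 gene (Bhs1076_009V1.1, scaffold 1076, 103024-103626, minus strand) had the highest mean CPM over all 9 libraries of the mitochondrial small-subunit members, with 24.4, 25.5 and 30 CPM in hydrated leaves, 12.1, 16.8 and 12.96 CPM at 70% RWC and 26.2, 26.8 and 28.4 CPM at 10% RWC. It was low at 70% RWC alone, and hydrated and 10% RWC libraries overlapped. S1 was 1.91-fold lower at 70% RWC (log2 fold change -0.93, SE 0.131, adjusted p = 5.72e-06), rose from there to 10% RWC (log2 fold change 0.96, SE 0.13, adjusted p = 3.32e-06) and was not called between hydrated leaves and 10% RWC (log2 fold change 0.03, SE 0.119, adjusted p = 0.828). Its best match is encoded in the mitochondrial genome of Ricinus communis and its model has no intron, and which genome its reads come from was not tested. L46 (Bhs45_126V1.1), a protein of mitochondrial ribosomes without a bacterial counterpart and the mitochondrial large-subunit member with the highest mean CPM over all 9 libraries (though below L24 at 10% RWC), lies on the minus strand of scaffold 45 at 823414-825504. It had 20.8, 26.4 and 22.5 CPM in hydrated leaves, 19.3, 24.7 and 22.8 CPM at 70% RWC and 10.8, 10.7 and 12.2 CPM at 10% RWC. The 10% RWC libraries were all below the others, which overlapped. It was 2.07-fold lower at 10% RWC (log2 fold change -1.05, SE 0.135, adjusted p = 1.24e-06) and not called at 70% RWC (adjusted p = 0.685). The mitochondrial L12 gene averaged 8.76 ± 1.46, 9.86 ± 0.620 and 5.66 ± 1.01 CPM and was also lower at 10% RWC (log2 fold change -0.63, SE 0.183, adjusted p = 0.0043).

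Of the 12 members without a given organelle, 3 were lower and 1 higher at 70% RWC, 5 and 5 at 10% RWC, and 2 and 6 between the dried states. At 10% RWC both shares were 41.7%, near the 41.5% lower and 42.4% higher of all genes. The shares of all genes were 35.9% lower and 34.6% higher at 70% RWC, and 39.6% and 37.1% between the dried states. The single genes below are thus given by their own values, not as a trend of these 12. Without replicate 1, the increase at 70% RWC was lost and 3 were lower there, and the counts were 6 and 4 at 10% RWC and 2 and 6 between the dried states. S5 (Bhs8868_003V1.1), which takes part in the accuracy of decoding, lies on the minus strand of scaffold 8868 at 15828-23840. It had 30.4, 24.3 and 25.9 CPM in hydrated leaves, 27.5, 24.3 and 22.7 CPM at 70% RWC and 66.98, 59.04 and 60.7 CPM at 10% RWC. Hydrated and 70% RWC libraries overlapped, all 10% RWC libraries were higher, and replicate 1 was the highest of each state. S5 rose 2.31 times at 10% RWC (log2 fold change 1.21, SE 0.102, adjusted p = 4.52e-09). Its model, at 2106 coding bases, is the longest of the 40. L9 (Bhs862_001V1.1), which reaches out from the large subunit, lies on the minus strand of scaffold 862 at 2240-4723. It had 28.99, 25.8 and 23.8 CPM in hydrated leaves, 20.3, 25.9 and 24.2 CPM at 70% RWC and 45.3, 45.3 and 45.7 CPM at 10% RWC, and it too was higher at 10% RWC alone (log2 fold change 0.79, SE 0.102, adjusted p = 1.31e-06). L6 (Bhs22_071V1.1), near the factor-binding site, lies on the plus strand of scaffold 22 at 512101-512409. It had 17.1, 16.8 and 16.3 CPM in hydrated leaves, 18.9, 17.7 and 15.8 CPM at 70% RWC and 22.1, 21.2 and 24.5 CPM at 10% RWC. Its 10% RWC libraries were just above the others, a 1.35-fold increase (log2 fold change 0.43, SE 0.112, adjusted p = 0.00184).

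L1 and L25 of these 12 were lowest at 70% RWC. L1 (Bhs1858_012V1.1), the mobile stalk beside the exit site of transfer RNA, lies on the plus strand of scaffold 1858 at 125297-128804. It had 20.4, 24.4 and 22.2 CPM in hydrated leaves, 8.49, 9.81 and 10.2 CPM at 70% RWC and 17.4, 16.1 and 19.2 CPM at 10% RWC. The states were separate, with 10% RWC between the other states. It was 2.35-fold lower at 70% RWC (log2 fold change -1.24, SE 0.131, adjusted p = 1.73e-07) and rose again by 10% RWC (log2 fold change 0.89, SE 0.135, adjusted p = 1.12e-05). The call of a lower level at 10% RWC than in hydrated leaves (log2 fold change -0.34, SE 0.119, adjusted p = 0.013) was lost in 3 of 18 alternative analyses, over which its adjusted p ran from 0.00167 to 0.0681, and among these were the analyses without 10% RWC replicate 2 (adjusted p = 0.0646) or hydrated replicate 2 (adjusted p = 0.0644). L25 (Bhs211_038V1.1), a binding protein of 5S ribosomal RNA, lies on the plus strand of scaffold 211 at 299982-301806. It had 10.5, 15.6 and 11.9 CPM in hydrated leaves, 7.51, 5.42 and 9.13 CPM at 70% RWC and 13.3, 10.4 and 14.1 CPM at 10% RWC. It was low at 70% RWC (log2 fold change -0.78, SE 0.202, adjusted p = 0.00237), and hydrated and 10% RWC libraries overlapped (adjusted p = 0.988). L7/L12 of the stalk averaged 24.1 ± 2.03 CPM in hydrated leaves, 14.6 ± 0.361 at 70% RWC and 14.96 ± 0.845 at 10% RWC and was called lower in both dried states, which overlapped.

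L27 (Bhs13_038V1.1), whose end reaches the peptidyl transferase centre, lies on the minus strand of scaffold 13 at 336900-343997. It had 21.3, 23.98 and 17.4 CPM in hydrated leaves, 26.6, 22.5 and 23.6 CPM at 70% RWC and 9.32, 10.1 and 8.65 CPM at 10% RWC. Only its 10% RWC libraries were apart from the rest, all of them lower (log2 fold change -1.16, SE 0.142, adjusted p = 6.8e-07). At 70% RWC it was called in 1 of 18 alternatives, that without hydrated replicate 2 (adjusted p = 0.0475). L33 averaged 8.80 ± 2.68, 6.90 ± 1.64 and 5.10 ± 1.67 CPM, and the call of a decrease at 10% RWC (log2 fold change -0.78, SE 0.279, adjusted p = 0.0184), where the states overlapped, was lost in 4 of 18 alternative analyses, over which its adjusted p ran from 3.34e-05 to 0.083, and among these were the analyses without 10% RWC replicate 1 (adjusted p = 0.078), hydrated replicate 2 (adjusted p = 0.0806) or hydrated replicate 3 (adjusted p = 0.0642). At 70% RWC L33 was called only without hydrated replicate 1 (adjusted p = 0.0343). S11, of the platform of the small subunit, averaged 18.1 ± 1.34, 17.7 ± 3.83 and 16.02 ± 3.79 CPM and was the member called in none of the 3 comparisons. Leaving out 10% RWC replicate 1 gave it an adjusted p of 0.0376 at 10% RWC (log2 fold change -0.39).

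The same protein number occurs in 3 S1, 3 L12, 3 L18 and 2 L19 genes, 11 members in all, and genes of 1 number did not always move together. The chloroplastic L18 gene (Bhs225_027V1.1), a binding protein of 5S ribosomal RNA, lies on the minus strand of scaffold 225 at 135521-136278. It had 13.03, 13.5 and 10.4 CPM in hydrated leaves, 5.70, 5.42 and 5.16 CPM at 70% RWC and 1.73, 2.95 and 1.76 CPM at 10% RWC. It fell at each step without overlap, 2.27-fold lower at 70% RWC (adjusted p = 1.33e-05) and 5.75-fold lower at 10% RWC (adjusted p = 4.22e-09). The L18 gene on scaffold 2441 (Bhs2441_030V1.1) lies on the plus strand of scaffold 2441 at 253104-253460. It had 4.60, 6.10 and 8.68 CPM in hydrated leaves, 3.62, 4.83 and 6.48 CPM at 70% RWC and 11.9, 18.4 and 17.2 CPM at 10% RWC. Its replicate 1 was the lowest of each state, and all 10% RWC libraries were above the others (log2 fold change 1.30, SE 0.232, adjusted p = 8.77e-05). The L18 gene on scaffold 1140 (Bhs1140_001V1.1) lies on the plus strand of scaffold 1140 at 3039-3395. It had 7.92, 7.66 and 8.38 CPM in hydrated leaves, 11.6, 9.37 and 10.6 CPM at 70% RWC and 10.8, 11.1 and 9.73 CPM at 10% RWC. It was slightly higher in both dried states than in hydrated leaves, and the dried states overlapped. Its call at 70% RWC (log2 fold change 0.40, SE 0.148, adjusted p = 0.0241) was lost in 8 of 18 alternative analyses, over which its adjusted p ran from 0.0166 to 0.142, and among these were the analyses without 70% RWC replicate 1 (adjusted p = 0.101), 70% RWC replicate 3 (adjusted p = 0.0514) or hydrated replicate 2 (adjusted p = 0.0656). At 10% RWC the call (log2 fold change 0.40, SE 0.147, adjusted p = 0.0186) was lost in 8 of 18 alternative analyses, over which its adjusted p ran from 0.0151 to 0.149, and among these were the analyses without 10% RWC replicate 2 (adjusted p = 0.0537), 70% RWC replicate 1 (adjusted p = 0.0834) or hydrated replicate 2 (adjusted p = 0.055). These last 2 genes share their best match, and only uniquely aligned reads were counted. Whether reads fit both equally well and were left out was not tested, and their separate levels are uncertain to that extent.

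Ratios between genes of 1 number were compared over the libraries for 10 pairs in 3 comparisons, 30 in all. With 3 libraries per state an exact two-sided permutation test cannot give a p below 0.1 (0.13 after Benjamini-Hochberg adjustment over the 30), so none could pass 0.05. The log2 ratio of the chloroplastic L18 gene to that on scaffold 2441 was 0.97 ± 0.636 (SD, n = 3) in hydrated leaves and -2.90 ± 0.342 at 10% RWC, with exact permutation p = 0.1. For S1, the chloroplastic gene stood above the homolog by 1.92 ± 0.032 in hydrated leaves, by 3.42 ± 0.038 at 70% RWC and by 3.55 ± 0.256 at 10% RWC on the log2 scale, with a smaller ratio in every hydrated library than in any dried one (exact permutation p = 0.1) and overlap between the dried states. For L19, the gene without an organelle averaged 8.05 ± 2.28, 10.7 ± 1.96 and 3.16 ± 1.21 CPM, so its decrease lay between the dried states (log2 fold change -1.75, SE 0.264, adjusted p = 1.53e-05), whereas the chloroplastic gene had fallen by 70% RWC. For L12, the log2 ratio of the chloroplastic-like to the mitochondrial gene was -0.99 ± 0.223 at 70% RWC and 0.59 ± 0.621 at 10% RWC, without overlap (exact permutation p = 0.1).

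**Figure D4:**
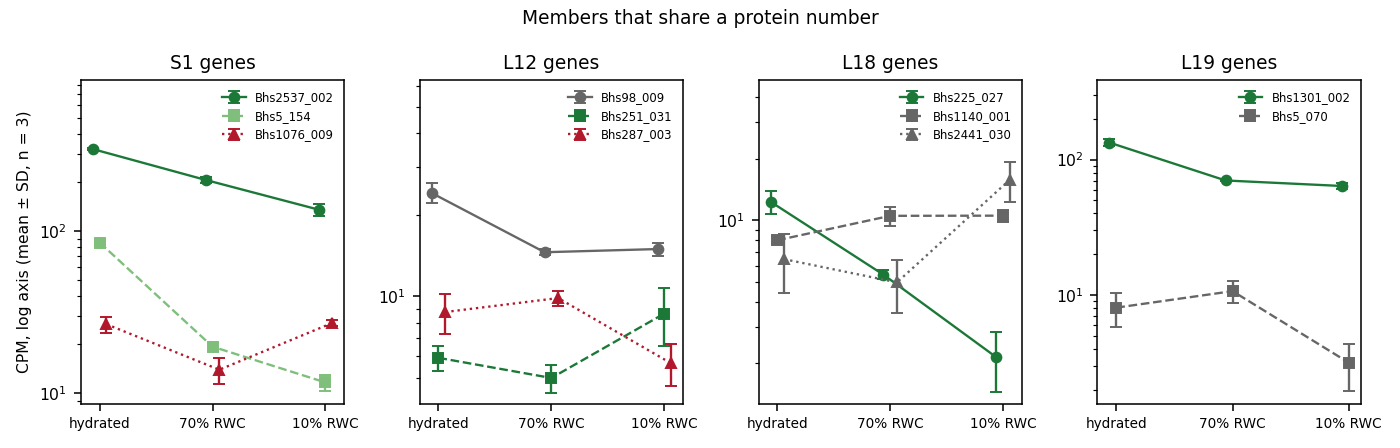
Mean TMM-scaled CPM with SD of 3 libraries, on log axes that differ between panels, for the members that share a protein number, with green for chloroplast, red for mitochondrial and grey for no given organelle. The 3 L18 genes part at 10% RWC, where the chloroplastic one averages 2.14 CPM and the one on scaffold 2441 averages 15.8 CPM.

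Other genes of protein synthesis were counted in the same test from lists of search words. Beside these counts, 35.9% of all genes were lower and 34.6% higher at 70% RWC. The shares of all genes were 41.5% and 42.4% at 10% RWC, and 39.6% and 37.1% between the dried states. The 103 other ribosomal proteins tested, whose descriptions name no organelle, were lower in 51 cases and higher in 7 at 70% RWC, 71 and 11 at 10% RWC, and 57 and 15 between the dried states, with medians of -0.25, -0.56 and -0.29. Over all 107 genes of that list, tested or not, the sum was 0.911% ± 0.0319, 0.716% ± 0.0249 and 0.665% ± 0.00590 of reads in the 3 states. A few of them rose steeply, such as a gene for L7a of the large cytosolic subunit (Bhs269_015V1.1), from 28.1 ± 2.08 to 176 ± 6.66 CPM at 10% RWC (adjusted p = 3.19e-15). Of the 107, 17 genes carry a plastid term all the same, so the 40 members need not be the whole set. Of the 16 tested among these 17, 9 were lower and 2 higher at 70% RWC, with a median log2 fold change of -0.34. At 10% RWC 11 were lower and 1 higher than in hydrated leaves, with a median of -0.47. Those medians were smaller in size than the -1.13 and -1.72 of the 22 chloroplast members.

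Organelle translation factors, which load and move transfer RNA on these ribosomes, were lower in 8 of 14 cases at 70% RWC, and the other 6 were not called. At 10% RWC 6 were lower and 6 higher than in hydrated leaves, and 11 were higher than at 70% RWC. Chloroplast elongation factor G (Bhs3841_001V1.1) averaged 1149 ± 96.6, 309 ± 10.9 and 568 ± 33.1 CPM. Elongation factor Tu (Bhs5_068V1.1) went from 1083 ± 77.2 to 219.9 ± 7.75 at 70% RWC (adjusted p = 2.82e-15) and stood at 266 ± 2.12 at 10% RWC. Of 5 organelle aminoacyl-tRNA synthetases, which charge transfer RNA, 3 were lower and 2 higher at 70% RWC, and all 5 were higher at 10% than at 70% RWC. The 5 ribosome assembly factors showed 1 lower and 1 higher at 70% RWC and 2 and 2 at 10% RWC, and ribosome-binding factor A (Bhs8705_003V1.1) rose from 20.2 ± 5.27 to 44.1 ± 6.40 CPM at 10% RWC (adjusted p = 6.51e-06).

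Plastid transcription genes were mixed too, with 5 of 8 lower and 1 higher at 70% RWC, and 3 lower and 4 higher at 10% RWC. Among the sigma factors, which guide the plastid's bacterial-type RNA polymerase to promoters, Bhs862_007V1.1 fell from 190.0 ± 33.2 to 31.3 ± 1.44 and 20.2 ± 4.39 CPM, while Bhs1427_002V1.1 rose from 165 ± 18.9 to 1227 ± 144 CPM at 10% RWC (adjusted p = 3.64e-12). Clp protease and chaperonin genes, which handle proteins after synthesis, were lower in 8 of 26 cases and higher in 11 at 70% RWC, and 12 and 10 at 10% RWC. A plastid term was carried by 22 of the 27 genes on that list, so not all need belong to an organelle. Photosystem and light-harvesting genes were lower in 20 of 22 cases at both water contents, with medians of -2.85 and -3.57, and all 4 Rubisco small subunit and activase genes were lower, with medians of -2.93 and -5.12. Without replicate 1, the other ribosomal proteins were lower in 58 of 104 cases and higher in 8 at 70% RWC, 75 and 15 at 10% RWC, and 57 and 18 between the dried states. Assembly factors then showed 1 lower and 3 higher at 70% RWC, and no other count given here for these lists moved by more than 1 gene. Beside photosystem and Rubisco genes, the chloroplast ribosomal members' medians of -1.13 and -1.72 were smaller in size.

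**Figure D5:**
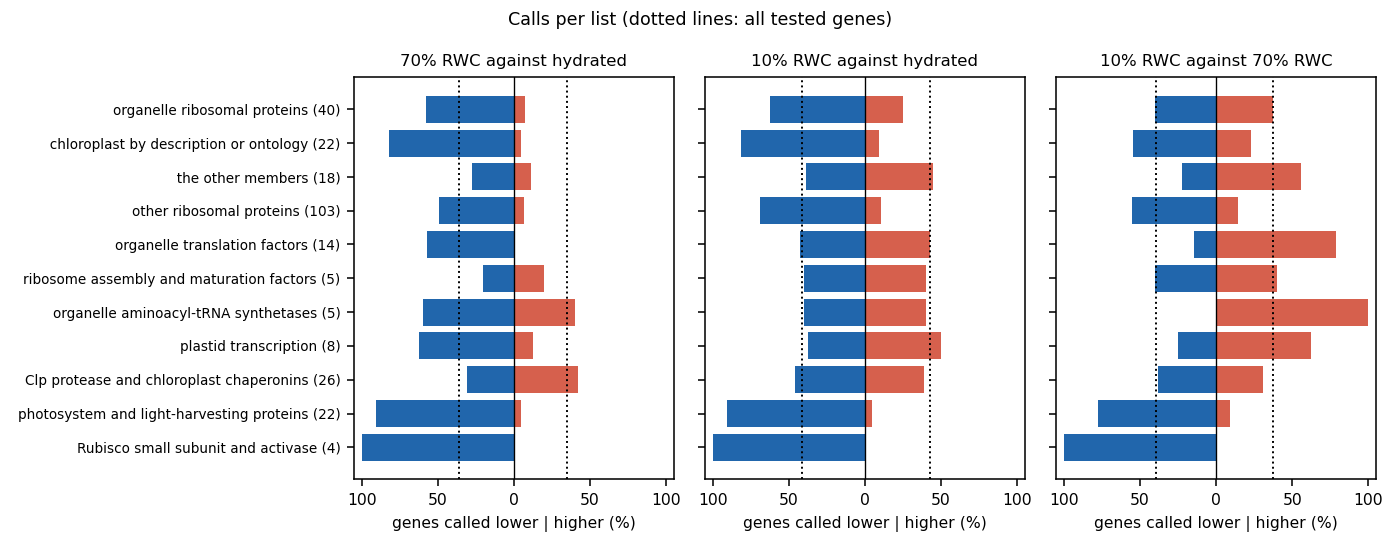
Percent of each list's tested genes called lower (left, blue) or higher (right, red) in the 3 comparisons, with the number tested in brackets and dotted lines at the percent of all tested genes. The chloroplast members reach 81.8% lower in both comparisons against hydrated leaves, between the other members and the photosystem genes.

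All 40 members are listed in the authors' deposited table, which sets each dried state against hydrated leaves. At an adjusted p under 0.05 the authors' deposited table gives 23 members lower and 1 higher at 70% RWC, and 26 lower and 7 higher at 10% RWC. Calls are the same as here for 38 members at 70% RWC, and L18 on scaffold 1140 and PSRP-3 are called here alone. At 10% RWC they are the same for 36. The authors' deposited table alone calls S6 lower (log2 fold change -0.39, adjusted p = 0.0413), and L18 on scaffold 1140, L6 and chloroplastic-like L12 are called here alone. No member is called in opposite directions.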

How the data were processed

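Total RNA of leaf tissue was sequenced after standard Illumina library preparation, per the labels' protocols. For each of 9 libraries the authors deposited counts of uniquely aligned reads per gene and the percent of a gene's length that reads cover, per the file headers. Genes without a read are not listed and were set to 0. The authors' deposited table of comparisons holds log2 fold changes and adjusted p-values. Its method, the aligner, the assembly version, read filters and the use of strand are not given in the sources used here, so antisense reads cannot be told apart. Positions are those of the authors' files. No member's model overlaps another model, and models hold coding sequence alone (100% of lengths are multiples of 3).

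Counts were tested with the robust quasi-likelihood test of edgeR 4.0.16 (R 4.3.3), after filterByExpr and TMM scaling, in 1 model of the 9 libraries with a mean for every state and without a block. P-values were adjusted by Benjamini-Hochberg over 14585 genes (threshold 0.05), and the code was tested on simulated data. SEs were obtained as the absolute log2 fold change over the root of F. Alternatives were DESeq2 1.42.0, RLE or total-count scaling, no filter or 1 CPM in 3 libraries, a replicate block, only the 2 states compared, replicates 2 and 3 summed, and each library left out. Leaving out replicate 1 of every state was added after seeing the data. Exact permutation tests used scipy 1.17.1.

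The members, the other lists and the tests were chosen with earlier results of these data known. Values in every library are given for the 6 largest called decreases and increases per comparison (non-overlapping states, at least 20 CPM in the higher state), for every member called higher in any comparison and for the highest member by mean CPM over all libraries of each organelle and subunit. Values given for the remaining members, such as the chloroplastic L18 and S7, were chosen after they were seen. From other lists, up to 2 called genes per direction with at least a 2-fold change could be named.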

Additional observations from a re-analysis of the deposited data

How the results depend on the processing

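No call of a member changed direction in any of the 18 alternative analyses of its fold change. Leaving out 1 library at a time gave 22 to 24 members lower and 2 to 3 higher at 70% RWC, 23 to 26 lower and 8 to 11 higher at 10% RWC, and 15 to 20 lower and 14 to 15 higher between the dried states. The 3 increases at 70% RWC became 1 under DESeq2, without the filter, with replicates 2 and 3 summed and with total-count scaling, and 5 with the replicate block. Libraries of the same number shared deviations from their state means, with r over 0.1 in 6 of 9 pairs (0.069 to 0.293 across genes). The replicate 1 libraries averaged an r of 0.256 to 0.284 with their own number and -0.125 or lower with any other. In all, 7 of 9 libraries were closest to their own number. The main model still has no block, since the labels state no pairing, so these shared deviations stay in its spread. With the replicate block the other counts were 23 lower at 70% RWC, 26 and 10 at 10% RWC, and 18 and 15 between the dried states. The block added L24 (adjusted p = 0.0482) and the L19 without an organelle (0.0242) as higher at 70% RWC, S6 as lower at 10% RWC (0.00232), and chloroplastic L19 (0.0421) and L33 (0.0313) as lower between the dried states. With a minimum of 2-fold, 13 were lower and 0 higher at 70% RWC (edgeR), 5 were higher at 10% RWC, and 7 were lower and 5 higher between the dried states. Among the 19 members whose description names an organelle, 12 were lower at 70% RWC, 12 lower and 4 higher at 10% RWC, and 9 lower and 7 higher between the dried states. The members' summed share, 0.281%, 0.132% and 0.122% of reads, became 0.274%, 0.138% and 0.120% with TMM scaling, and 0.175%, 0.0912% and 0.0755% for those 19. At 13 reads, the fewest of a member in a library, counting error alone is large, but that member, chloroplastic L18, lost no call in the 18 alternatives.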
